A study of Mus musculus with 5 samples.

Results

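The 39 genes described here make up the antioxidant, thioredoxin and glutathione genes of liver macrophages: the regulators Nfe2l2 and Keap1, the enzymes that make and recycle glutathione, the glutathione peroxidases, thioredoxins, peroxiredoxins, superoxide dismutases, catalase and the glutathione transferases. They were chosen by gene symbol from a count table of 46983 genes. All 39 were found there, and all 39 were among the 16436 genes with enough reads to be tested. The rule uses gene symbols and no measured value.

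The study compared Kupffer cells, the resident macrophages of the liver sinusoids, between mice with 1 working copy of Id3 (ID3+/-) and mice with none (ID3-/-). Id3 encodes a helix-loop-helix protein that lacks a DNA-binding region and holds E proteins, which bind E-box sequences, away from DNA. Poly-A RNA was measured in 3 heterozygous libraries (replicates 1, 2 and 3) and 2 knockout libraries (replicates 2 and 3), with no treatment named and no wild-type group. No source used here states the age, sex or strain of the mice, or the gate or column used to isolate the cells. Every column name carries a "3w", which may be an age but is explained by no label. The labels do not say that each library came from a separate animal, so the p-values measure the spread between these libraries only.

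Cells meet hydrogen peroxide with several overlapping enzyme systems. Superoxide dismutases turn superoxide into peroxide, which is then removed by catalase, by glutathione peroxidases at the cost of glutathione, or by peroxiredoxins at the cost of thioredoxin. Oxidised glutathione and oxidised thioredoxin are each returned to their reduced form with NADPH. The transcription factor NRF2, encoded by Nfe2l2, drives many of these genes through antioxidant response elements when its inhibitor KEAP1 is modified by oxidants or electrophiles. Kupffer cells are exposed to such molecules in portal blood and make superoxide themselves through the NADPH oxidase.

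The libraries held 74823374 to 80944135 counts in genes. Id3, in CPM (counts scaled to library size with edgeR's normalisation factors), read 229, 221 and 256 in the heterozygous libraries against 1.01 and 1.42 without Id3, so every library matched its label. The 15 Kupffer cell markers summed to 68485 to 74777 CPM in the heterozygous and 74735 to 82592 CPM in the knockout libraries, with none at 0 and Clec4f and Cd5l highest. Of these markers 4 passed, in both directions: Marco, C1qb and C1qc were higher and Cd163 lower (named after their values were seen). Among markers of other cells, the 22 hepatocyte markers summed to 30512, 33704 and 28665 CPM in heterozygous cells against 6090.1 and 13748 CPM in knockout cells, led by Alb and Ahsg and with none at 0. The knockout sum was 32.0% of the heterozygous one, and 18 of these 22 genes passed the test as lower. The 13 neutrophil markers summed to 169 to 189.6 CPM in heterozygous cells and to 619 and 301 CPM in knockout 2 and knockout 3. Of 10 tested, 7 were higher. Mmp9 and Csf3r made up most of each sum, at means of 98.7 and 67.5 CPM in heterozygous cells and 209 and 116 CPM in knockout cells. Ngp, Ltf, Camp, Cxcr2 and Mpo were at 0 in at least 1 library. In knockout 2 and knockout 3, Ngp read 78.3 and 0.465 CPM, Ltf 40.5 and 0 CPM, and Camp 17.6 and 0.0517 CPM. Ngp and Cxcr2, which are among the 7, had heterozygous means of only 0.11 and 0.00845 CPM. The 11 sinusoidal endothelial markers summed to 1179.6 to 1398 CPM and 1046 to 1081 CPM, with 5 lower. The 10 stellate cell markers summed to 116 to 123 CPM and 69.6 to 76.6 CPM, with 4 lower and 1 higher. No marker of lymphocytes (158 to 256 against 214 to 425 CPM), erythroid cells (3293 to 3868 against 2736 to 3477 CPM) or cholangiocytes (0.837 to 7.33 against 1.7 to 28.2 CPM) passed in edgeR; at an unadjusted p under 0.05 these lists held 4, 1 and 1. Epb42 (erythroid) and Cldn4 (cholangiocyte) were at 0 in at least 1 library. Hepatocytes, neutrophils and endothelial cells express many of the 39 genes, and the part of these cells in the results below was not tested beyond the values given beside them. In bulk RNA, fewer cells of a type and less RNA per cell cannot be told apart.

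In edgeR's quasi-likelihood test, with p-values adjusted by Benjamini and Hochberg over all 16436 genes and a threshold of 0.05, 6 of the 39 genes passed (15.4%). The share among all tested genes was 16.4%, so the number of antioxidant genes that passed is not a result about the group. Gpx4, Gsto1 and Gstp1 rose in the knockout libraries, where 6.41% of all tested genes rose. Gclc, Gsr and Cat fell, where 10.0% of all tested genes fell. The 3 genes that fell make and recycle glutathione (Gclc, Gsr) and break down hydrogen peroxide (Cat). The 3 that rose use glutathione as their substrate. The other glutathione peroxidases and transferases did not pass in edgeR. Of all members with these roles, 4 of 5 peroxidases, 5 of 7 cytosolic and 2 of 3 microsomal transferases had a log2 fold change above 0. The 6 calls are therefore no result about making or using glutathione as a whole. Of the other 33 genes, 7 had an adjusted p between 0.05 and 0.10: Nfe2l2, Gclm, Gpx3, Txn2, Txnrd2, Prdx2 and Prdx5. In 24 of the 39 genes (61.5%) the values of the genotypes did not overlap, 14 with the knockout libraries higher and 10 with them lower; over all tested genes that share was 51.5%, made up of 24.6% higher and 26.9% lower. The median log2 fold change (knockout minus heterozygous) was 0.15 over the 39 genes and -0.02 over all tested genes.

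**Figure D1:**
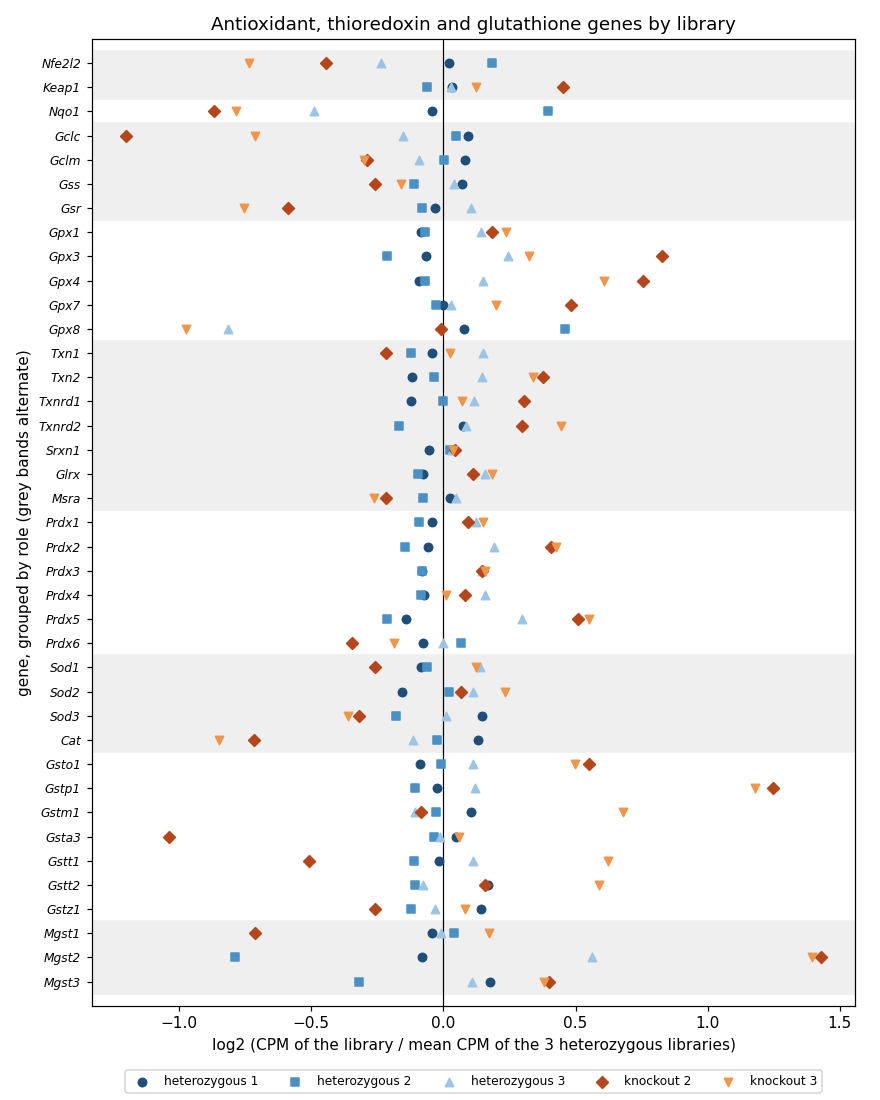
Level of each of the 39 genes in each library, as the log2 of its CPM over the mean CPM of the 3 heterozygous libraries; each point is 1 library and grey bands separate the roles. Both knockout libraries lie to the left for Gclc, Gsr and Cat and to the right for Gpx4, Gsto1 and Gstp1, whereas for Gsta3, Gstt1 and Mgst1 knockout 2 lies below and knockout 3 above the heterozygous libraries.

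The promoters of the genes that passed are shown first, since the products of Id3 and Nfe2l2 act on transcription through short DNA motifs. RefSeq sequence (GRCm38.p6) from 250 bases before to 50 bases after a transcription start was matched for 33 of the 39 genes, in 42 windows; Gclc, Gsr, Gstt2, Msra, Prdx6 and Sod3 were not matched. These 300-base windows were searched on both strands for the general E-box (CANNTG), its form CAGCTG, an AP-1 site (TGANTCA) and the core of the antioxidant response element (TGACNNNGC). The general E-box was in 72.3% of all 32851 mouse promoter windows, CAGCTG in 16.3%, the AP-1 site in 7.81% and the antioxidant response element core in 12.4%. Among the 42 windows matched here the shares were 50%, 9.52%, 14.3% and 19%, in the same order. Below are the 250 bases before the start of the 3 passing genes with a single window, 5′ to 3′ on the strand of the gene, with E-box and AP-1 letters in capitals.
Gstp1 (chr19:4037913-4038162, minus strand): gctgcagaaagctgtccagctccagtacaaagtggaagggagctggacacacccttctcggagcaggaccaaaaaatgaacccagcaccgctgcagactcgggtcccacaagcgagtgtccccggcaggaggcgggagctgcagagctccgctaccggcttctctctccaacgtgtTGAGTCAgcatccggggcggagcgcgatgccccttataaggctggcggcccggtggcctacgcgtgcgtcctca
Gsto1 (chr19:47854723-47854972, plus strand): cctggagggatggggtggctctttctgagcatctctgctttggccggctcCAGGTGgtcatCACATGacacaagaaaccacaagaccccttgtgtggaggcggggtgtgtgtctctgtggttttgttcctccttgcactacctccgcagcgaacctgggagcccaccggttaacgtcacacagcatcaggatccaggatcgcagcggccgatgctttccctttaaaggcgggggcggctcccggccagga
Cat (chr2:103485154-103485403, minus strand): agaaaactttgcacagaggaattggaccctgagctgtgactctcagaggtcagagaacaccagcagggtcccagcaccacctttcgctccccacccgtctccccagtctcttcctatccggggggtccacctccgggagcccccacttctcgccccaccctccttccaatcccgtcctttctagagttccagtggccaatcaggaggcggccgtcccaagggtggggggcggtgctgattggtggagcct
In Gstp1 the capitals mark an AP-1 site that begins 74 bases before the start. In Gsto1 they mark a pair of E-boxes that begin 200 and 189 bases before the start. The Cat window holds none of these letters. Gpx4 has 4 windows in the table, and CAGCTG is in 1 of them.

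The antioxidant response element core was present in the windows of 8 genes: Gclm, Gsta3, Mgst1, Nfe2l2, Prdx1, Sod1, Srxn1 and Txnrd1. None of these 8 passed the test in edgeR; Nfe2l2 and Gclm had an unadjusted p under 0.05 and were called by DESeq2, and limma-voom called Nfe2l2. They are shown because this element is the route by which NRF2 acts on the family, here for the regulator itself, a glutathione synthesis subunit, a peroxiredoxin and a thioredoxin reductase, with the 9 letters of the core in capitals.
Nfe2l2 (chr2:75704865-75704913, minus strand): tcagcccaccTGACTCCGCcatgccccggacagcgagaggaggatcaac
Gclm (chr3:122245393-122245461, plus strand): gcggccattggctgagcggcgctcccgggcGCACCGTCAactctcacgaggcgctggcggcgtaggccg
Prdx1 (chr4:116685436-116685504, plus strand): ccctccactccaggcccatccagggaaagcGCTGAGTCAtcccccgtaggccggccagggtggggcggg
Txnrd1 (chr10:82859084-82859152, plus strand): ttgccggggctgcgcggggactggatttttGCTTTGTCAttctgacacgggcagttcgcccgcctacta
The core begins 240 bases before the start in Nfe2l2, 134 in Gclm, 133 in Prdx1 and 92 in Txnrd1. It lies on the printed strand in Nfe2l2 and on the opposite strand in Gclm, Prdx1 and Txnrd1. Txnrd1 has 3 windows, and its other windows hold no core. In Prdx1 the core overlaps an AP-1 site. A match is a description of letters in these windows and not of binding.

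Neither regulator passed in edgeR, both had an unadjusted p under 0.05, and DESeq2 and limma-voom each called Nfe2l2. Nfe2l2 read 94.8, 106 and 79.3 CPM in heterozygous cells against 68.7 and 56.1 CPM in knockout cells. Both knockout values lay under all heterozygous ones, but the test was missed (log2 fold change -0.58 ± 0.16 (SE), edgeR adjusted p = 0.0552). Nfe2l2 passed without heterozygous replicate 3 (-0.69, edgeR adjusted p = 0.0376), and with offsets for length and GC content it was at -0.19 (0.475). Keap1, which holds NRF2 for degradation, read 94.9, 88.7 and 94.5 CPM against 127 and 101 CPM. Both knockout values lay above the heterozygous ones, and the difference did not pass (0.30 ± 0.12, edgeR adjusted p = 0.147). Keap1 was at 0.12 (0.57) without knockout replicate 2 and passed at 0.47 (0.049) without knockout replicate 3. Of the Keap1 sequence, 7.78% of its 50-base stretches also belong to an antisense gene, so reads there may count for neither gene unless strand was used. Nqo1, a quinone reductase and a standard readout of NRF2 activity, was low in all libraries, at 3.03, 4.10 and 2.22 CPM against 1.71 and 1.81 CPM. Its knockout values were below the heterozygous ones, without passing (-0.83 ± 0.35, edgeR adjusted p = 0.157).

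Glutathione synthesis and recycling held 2 of the 3 genes that fell. Gclc (ENSMUSG00000032350.8) encodes the catalytic subunit of glutamate-cysteine ligase, the rate-limiting enzyme of glutathione synthesis. Its values were 86.1, 83.6 and 72.6 CPM in heterozygous cells against 35.2 and 49.3 CPM in knockout cells. The genotypes were well separated, with knockout 2 the lowest library. Gclc fell by 0.93 ± 0.17 (SE) on the log2 scale, to 52.3% of the heterozygous level (edgeR adjusted p = 0.0213). Gsr (ENSMUSG00000031584.16), the reductase that regenerates glutathione with NADPH, was present at 312, 302 and 343 CPM against 212 and 189 CPM. Both knockout libraries were low, and knockout 3 was the lower of the pair. Gsr fell by 0.67 ± 0.10 on the log2 scale, to 62.8% (edgeR adjusted p = 0.0147). The modifier subunit Gclm gave 95.8, 90.6 and 85.0 CPM against 74.0 and 73.4 CPM (-0.30 ± 0.09, edgeR adjusted p = 0.0831). Glutathione synthetase, Gss, which adds glycine in the last step, gave 59.9, 52.8 and 58.7 CPM against 47.7 and 51.1 CPM (-0.21 ± 0.11, edgeR adjusted p = 0.226). In all 4 genes of this role the knockout values lay under every heterozygous value, as they did in 26.9% of all tested genes, though Gclm turned to 0.14 on the log2 scale once length and GC content were corrected for.

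Neither knockout library decided the sign of Gclc or Gsr, but the calls were close to the threshold. Without heterozygous replicate 1 the adjusted p of Gclc was 0.0694, without heterozygous replicate 2 it was 0.0755, and without knockout replicate 2 it was 0.0593, with a log2 fold change of -0.71. For Gsr it was 0.0587 and 0.057 without heterozygous replicates 1 and 2. The hepatocyte marker sum was 2.26 times as high in knockout 3 as in knockout 2. Over the same libraries the ratio was 1.40 for Gclc and 0.891 for Gsr. Single hepatocyte markers differed widely in this. In knockout 2 and knockout 3, Trf read 725 and 866 CPM and Ttr 114 and 411 CPM (named after their values were seen). When the mean level of the hepatocyte markers was entered as a covariate, Gclc was at -0.14 (edgeR adjusted p = 0.897) and Gsr at -0.98 (edgeR adjusted p = 0.317).

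Most glutathione peroxidases reduce peroxides with glutathione, and 4 of the 5 members were above the heterozygous range in both knockout libraries (24.6% of all tested genes were), although Gpx1 turned to -0.08 with the length and GC correction. Gpx4 (ENSMUSG00000075706.10), the selenoenzyme that removes lipid peroxides from membranes and restrains ferroptosis, was the 1 that passed in edgeR; limma-voom also called Gpx4 alone, and DESeq2 called Gpx4 and Gpx3. It read 41.7, 42.3 and 49.2 CPM in heterozygous cells against 75.0 and 67.7 CPM in knockout cells. Both knockout libraries were far above the 3 others. Gpx4 rose 1.61-fold (log2 fold change 0.68 ± 0.12, edgeR adjusted p = 0.0185). Of the 50-base stretches of Gpx4, 34.7% are shared with the processed pseudogene Gpx4-ps2, so reads there may align to both and count for neither. The level of Gpx4 is therefore uncertain. With offsets for length and GC content Gpx4 stood at 0.42 and did not pass (edgeR adjusted p = 0.0852). It also did not pass without heterozygous replicate 1 (0.0694), heterozygous replicate 2 (0.0737) or knockout replicate 2 (0.0777).

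Gpx1, the abundant cytosolic selenoenzyme, read 3709.6, 3754 and 4351 CPM against 4470.3 and 4635 CPM. It alone took 42.0% to 44.7% of the counts of the 39 genes, and its difference did not pass (0.21 ± 0.09, edgeR adjusted p = 0.183). Gpx3, the secreted form, read 457, 412 and 566 CPM against 847 and 598 CPM. Knockout 2 was high and knockout 3 lay just above the heterozygous range (0.60 ± 0.19, edgeR adjusted p = 0.0819). Gpx3 was at 0.32 (0.34) without knockout replicate 2 and passed at 0.84 (0.0408) without knockout replicate 3; it also passed with a filter of 1 CPM in 2 samples (0.0399). Gpx7, a peroxidase of the endoplasmic reticulum, gave 14.8, 14.5 and 15.1 CPM against 20.7 and 17.0 CPM (0.35 ± 0.14, edgeR adjusted p = 0.151). Its relative Gpx8 was low, at 0.258 to 0.697 CPM, with overlapping genotypes.

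Among the 7 genes of the thioredoxin system and its repair enzymes none passed in edgeR; 2 had an unadjusted p under 0.05, DESeq2 called 2 (Txn2 and Txnrd2) and limma-voom called 0. Both of these are the mitochondrial forms. Txn2, the mitochondrial thioredoxin, read 166, 176 and 199.7 CPM in heterozygous cells against 234 and 228 CPM in knockout cells (0.36 ± 0.10, edgeR adjusted p = 0.0673). Txnrd2, which reduces it, read 51.1, 43.3 and 51.6 CPM against 59.7 and 66.2 CPM (0.37 ± 0.12, edgeR adjusted p = 0.0851). In both the genotypes did not overlap. Txn2 passed without heterozygous replicate 3 (0.44, edgeR adjusted p = 0.0356) and with upper-quartile or library size scaling. With a filter of 1 CPM in 2 samples both passed, Txn2 at 0.38 (0.0381). The cytosolic pair was less separated. Txn1 read 286, 271 and 327 CPM against 254 and 300.4 CPM, with a log2 fold change of -0.09 ± 0.12. Txnrd1, its reductase, read 281, 306 and 332 CPM against 378 and 321 CPM, at 0.19 ± 0.11. For each, 1 of the 2 knockout values lay inside the heterozygous range. Srxn1, which repairs overoxidised peroxiredoxins, read 60.7, 64.2 and 64.6 CPM against 65.0 and 64.7 CPM (0.04 ± 0.09). Glutaredoxin, Glrx, read 33.6 to 40.0 CPM against 38.8 and 40.8 CPM. The methionine sulfoxide reductase Msra averaged 37.7 ± 1.74 CPM (SD, n = 3) in heterozygous cells and read 32.4 and 31.4 CPM in knockout cells, both knockout values below the heterozygous ones without passing (-0.24 ± 0.11, edgeR adjusted p = 0.173).

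The 6 peroxiredoxins remove peroxide with a reactive cysteine, and none passed in edgeR, with 3 at an unadjusted p under 0.05; DESeq2 and limma-voom each called 2, Prdx2 and Prdx5. Prdx2, a cytosolic form, read 142, 134 and 169 CPM in heterozygous cells against 196 and 199 CPM in knockout cells (0.42 ± 0.12, edgeR adjusted p = 0.0616). Prdx5, found in mitochondria, peroxisomes and cytosol, read 417, 397 and 565 CPM against 654 and 674 CPM (0.53 ± 0.16, edgeR adjusted p = 0.073). In both, heterozygous replicate 3 was the highest of its group, and without it both passed, at adjusted p = 0.0282 for Prdx2 and 0.0185 for Prdx5. The sequence of Prdx5 overlaps that of its neighbour Trmt112 over 15.5% of its 50-base stretches. Prdx6, which also has phospholipase activity and works with glutathione, differed in direction, at 109, 120.3 and 115 CPM against 90.6 and 101 CPM (-0.26 ± 0.10, edgeR adjusted p = 0.123). Prdx1, a cytosolic form, read 739, 714 and 829.6 CPM against 812 and 845 CPM. Prdx3, the mitochondrial form, read 92.3 to 108 CPM against 108 and 109 CPM. Prdx4, of the endoplasmic reticulum, read 131 to 155 CPM against 147 and 139.9 CPM. The genotypes overlapped in these 3 genes, with log2 fold changes of 0.12, 0.15 and 0.04.

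Catalase, the peroxisomal enzyme that breaks down hydrogen peroxide without using glutathione or thioredoxin, had the smallest p-value of the genes that fell. Cat (ENSMUSG00000027187.10) read 446, 400.2 and 376 CPM in heterozygous cells against 248 and 226 CPM in knockout cells. Every knockout value was far under every heterozygous one. Cat fell by 0.78 ± 0.11 on the log2 scale, to 58.2% (edgeR adjusted p = 0.0121). The call was lost without heterozygous replicate 2, where the adjusted p was 0.057. Catalase is also abundant in hepatocytes; its ratio of knockout 3 to knockout 2 was 0.910, and that of the hepatocyte marker sum was 2.26. With the hepatocyte covariate it was at -0.99 and did not pass (edgeR adjusted p = 0.344).

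The 3 superoxide dismutases did not pass in edgeR, DESeq2 or limma-voom, and none had an unadjusted p under 0.05. Sod1, of the cytosol, read 43.5, 44.2 and 50.8 CPM against 38.5 and 50.2 CPM (-0.06 ± 0.15), and its sign changed with upper-quartile scaling to 0.01. Sod2, of mitochondria, read 132, 149 and 159 CPM against 154 and 173 CPM (0.16 ± 0.11). Sod3, the extracellular form, read 18.9, 15.1 and 17.2 CPM against 13.7 and 13.3 CPM (-0.34 ± 0.15, edgeR adjusted p = 0.185). Only in Sod3 of these 3 did the genotypes not overlap.

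Glutathione transferases attach glutathione to electrophiles, and the list holds 7 cytosolic and 3 microsomal forms. Gstp1 (ENSMUSG00000060803.5), the pi-class enzyme, had the largest fold change of the 6 genes that passed. It read 69.7, 65.8 and 76.9 CPM in heterozygous cells against 168 and 160.1 CPM in knockout cells. The knockout libraries were close to each other and far above all 3 heterozygous ones. Gstp1 rose 2.32-fold (log2 fold change 1.21 ± 0.10, edgeR adjusted p = 0.00412). Leaving out any 1 of the 5 libraries kept its adjusted p between 0.00547 and 0.0304. A near copy of the gene makes its level less certain, since 33.7% of its 50-base stretches are shared with Gstp2. Gstp2 itself read 19.8, 16.2 and 21.2 CPM against 16.2 and 14.9 CPM, with no change that passed (-0.29 ± 0.16, edgeR adjusted p = 0.276). Gsto1 (ENSMUSG00000025068.7), an omega-class enzyme that reduces dehydroascorbate and removes glutathione from proteins, read 128, 135 and 147 CPM against 199 and 192 CPM. All knockout values were higher, and Gsto1 rose 1.43-fold (0.52 ± 0.10, edgeR adjusted p = 0.0214). Its call was lost with offsets for length and GC content (0.48, edgeR adjusted p = 0.0512), and without heterozygous replicate 1 (0.0825), heterozygous replicate 2 (0.0818) or knockout replicate 2 (0.0795). The neutrophil marker sum, which was also higher in the knockout libraries, had a ratio of knockout 3 to knockout 2 of 0.487, beside 0.953 for Gstp1, 0.963 for Gsto1 and 0.902 for Gpx4. With the hepatocyte covariate none of these 3 passed, at 1.05 for Gstp1, 0.41 for Gsto1 and 0.40 for Gpx4 (edgeR adjusted p = 0.323, 0.595 and 0.668).

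In 4 of the other transferases the knockout libraries were far apart. Gsta3, an alpha-class form abundant in liver, read 68.2, 64.3 and 65.3 CPM in the heterozygous libraries and 32.1 and 68.7 CPM in knockout 2 and knockout 3. Gstt1, of the theta class, read 18.7, 17.5 and 20.4 CPM against 13.3 and 29.1 CPM. Mgst1, the main microsomal form, read 197, 209 and 202 CPM against 124 and 229 CPM. In all 3 genes knockout 2 lay below and knockout 3 above the whole heterozygous range, a pattern shown by 3.49% of all tested genes and by 2 of the 22 hepatocyte markers, Apoa2 and Ttr (named after their values were seen). Gstm1, of the mu class, read 113, 103 and 97.4 CPM against 98.9 and 168 CPM, so that knockout 3 alone stood out. The ratio of knockout 3 to knockout 2 was 2.20 for Gstt1, 2.14 for Gsta3, 1.85 for Mgst1 and 1.69 for Gstm1, beside 2.26 for the hepatocyte marker sum. It was 0.513 to 1.40 for the other 35 genes. A ratio of 1.5 or more was seen in 10.3% of the 39 genes and in 18.3% of all tested genes.

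These 4 genes gave different answers with each knockout library. Without knockout replicate 3, Gsta3 was at -1.03 (edgeR adjusted p = 0.0118) and Mgst1 at -0.70 (0.0191). Without knockout replicate 2, Gsta3 was at 0.06 (0.803), Mgst1 at 0.17 (0.343) and Gstm1 at 0.68 (0.0435). With all 5 libraries none of them passed: the log2 fold changes were -0.39 ± 0.30 for Gsta3, 0.17 ± 0.32 for Gstt1, -0.20 ± 0.24 for Mgst1 and 0.35 ± 0.22 for Gstm1. Gstt2 read 10.5 to 12.7 CPM against 12.6 and 17.0 CPM. Gstz1, an enzyme of tyrosine breakdown, read 49.3 to 59.3 CPM against 44.9 and 56.9 CPM. Neither was separated by genotype. Mgst3 read 13.1, 9.3 and 12.5 CPM against 15.3 and 15.1 CPM (0.39 ± 0.19, edgeR adjusted p = 0.216). Mgst2, which can make leukotriene C4, had the largest fold change of the 39 genes on very few reads, with 39, 23 and 54 counts in the heterozygous and 102 in each knockout library (1.41 ± 0.51, edgeR adjusted p = 0.111).

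**Figure D2:**
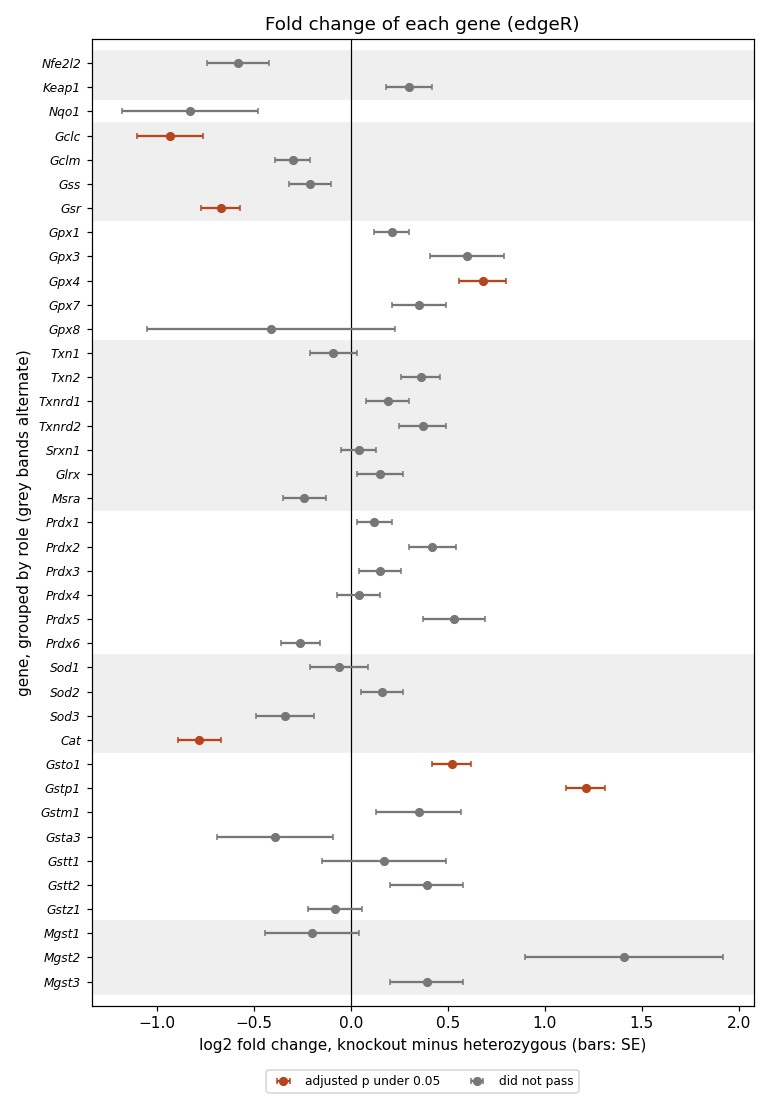
Log2 fold change of each of the 39 genes (knockout minus heterozygous, edgeR) with its standard error, in red where the adjusted p was under 0.05 and in grey where it was not. Gstp1 stands farthest right of the 6 genes in red at 1.21 and Gclc farthest left at -0.93; the widest bars belong to Gpx8 and Mgst2, the genes with the fewest reads.

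Levels of different genes were compared per kilobase of merged exons in CPM (RPKM), in the heterozygous libraries. Gpx1 stood alone at the top at 2733 ± 249 RPKM (SD, n = 3). Txn1 at 281 ± 27.6, Gpx3 at 264 ± 43.6, Prdx1 at 250.1 ± 19.9 and Prdx5 at 215 ± 43.0 RPKM followed, and each overlapped its neighbour in this order. Cat at 156 ± 13.6, Gsr at 116 ± 7.71 and Mgst1 at 101 ± 2.92 RPKM came next, each separate from its neighbours. The least abundant were Nqo1 at 2.01 ± 0.608, Gpx8 at 0.484 ± 0.196 and Mgst2 at 0.136 ± 0.0611 RPKM. Transcripts of Gpx1, Gpx3, Prdx1 and Prdx5, taken as the most abundant peroxide-reducing enzymes, exceeded those of glutathione synthesis. There Gclc was at 21.4 ± 1.91, Gclm at 14.4 ± 0.859 and Gss at 9.66 ± 0.647 RPKM. This did not hold for every peroxide-reducing enzyme, with Gpx7 at 11.5 ± 0.215 and Gpx8 at 0.484 ± 0.196 RPKM. Gstp1 went from 45.7 ± 3.61 to 106 ± 3.62 RPKM (SD, n = 2), which placed it above Cat, at 90.7 ± 6.07 RPKM in the knockout libraries. Together the 39 genes took 0.888% to 0.974% of all gene counts in heterozygous cells and 0.996% and 1.06% in knockout cells.

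**Figure D3:**
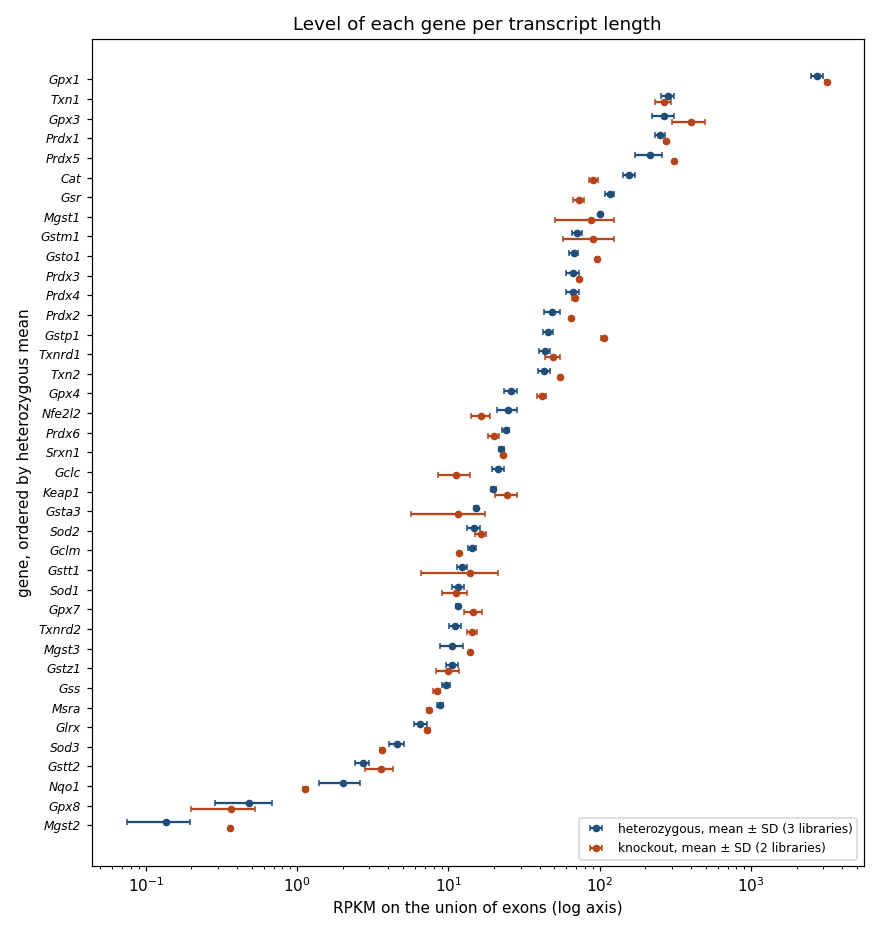
Level of each gene in CPM per kilobase of merged exons (RPKM, log axis), as mean ± SD of the 3 heterozygous (blue) and 2 knockout (red) libraries, ordered by the heterozygous mean. Gpx1 at 2733 RPKM stands apart from Txn1 at 281 RPKM, and the wide knockout bars of Mgst1, Gsta3 and Gstt1 show the distance between the 2 knockout libraries.

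The 6 genes that passed were also ordered by transcript length. The 3 that rose had merged exons of 1548 (Gstp1), 1724 (Gpx4) and 2023 bases (Gsto1), and the 3 that fell had 2613 (Cat), 2754 (Gsr) and 3766 bases (Gclc). The median was 3043 bases over the 39 genes and 3737 bases over all tested genes. The genes that rose were shorter than those that fell, with GC contents of 55.8%, 58.3% and 51.0% against 48.7% to 50.2%. When offsets for length and GC content were fitted for each library, Gstp1 (0.96, edgeR adjusted p = 0.00861), Gclc (-0.75, 0.0388), Gsr (-0.60, 0.0404) and Cat (-0.73, 0.0182) still passed, and Gpx4 and Gsto1 did not. Besides Gpx4 and Gstp1, stretches of 50 bases shared with other genes made up 21.0% of Sod2 and 10.3% to 18.9% of Gss, Prdx2 and Gstm1, which leaves their levels less certain. Cat, Gclc, Gsr and Gsto1 shared none.

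**Figure D4:**
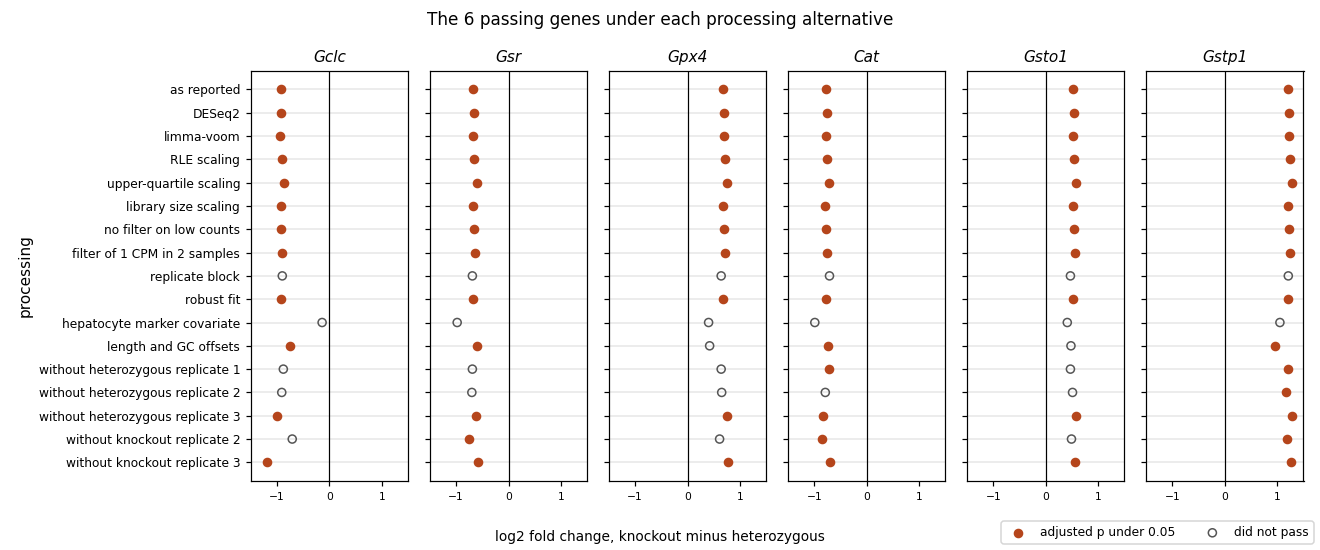
Log2 fold change of the 6 passing genes (knockout minus heterozygous) under the reported processing and 16 alternatives, filled where the adjusted p was under 0.05 and open where it was not. All points of a gene keep their sign; Gstp1 is filled in 14 of the 16 alternatives, Cat in 13, Gsr in 12, Gclc in 11, and Gpx4 and Gsto1 in 10 each.

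Other genes of the same pathways were read from 5 lists chosen by role, of which 91 of 99 genes were tested; 21 passed (23.1%), 14 higher and 7 lower, where 16.4% of all tested genes passed, 6.41% higher and 10.0% lower. Of 24 partners and further targets of NRF2, 6 rose and 2 fell (33.3% passed). Ugdh, which makes UDP-glucuronate, fell by 1.07 ± 0.10 on the log2 scale (edgeR adjusted p = 0.00552), and Me1, the malic enzyme that supplies NADPH, fell by 1.48 ± 0.23 (0.0152). Slc3a2, the heavy chain shared by several amino acid transporters, among them a cystine importer, rose by 0.70 ± 0.10 (0.0122). The light chain of that importer, Slc7a11, was hardly detected, at mean CPM values of 0.119 and 0.117 (-0.02, 0.99), and is named here outside the rule, after its values were seen. Also higher in the NRF2 list were Hmox1 (0.65 ± 0.13, edgeR adjusted p = 0.0252), Sqstm1 (0.55 ± 0.09, 0.0169) and Osgin1 (0.56 ± 0.12, 0.0283). Fth1 (0.44 ± 0.08, 0.023) and Ftl1 (0.53 ± 0.11, 0.028) rose too. These genes complete those of the list that passed, and are named outside the rule, after their values were seen. The most abundant gene of that list that did not pass was Taldo1 (0.22 ± 0.12, 0.245).

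Of 26 tested genes of further glutathione metabolism, 3 passed, all of them lower (11.5%, against 16.4% of all tested genes). Of the 26, 15 had a log2 fold change above 0 and 11 below. Anpep, a peptidase that can cleave the dipeptide left from glutathione, fell by 1.27 ± 0.18 (edgeR adjusted p = 0.0122). Lap3, another peptidase, fell by 0.41 ± 0.09 (0.03). Ggt6 read 1.80, 1.23 and 1.35 CPM against 0.159 and 0.0258 CPM (-3.96 ± 0.81, 0.0264). The value in knockout 3 lies below 0.0388 CPM, the level of 3 counts in that library, so the size of this change is uncertain. Slc25a39, the mitochondrial glutathione importer, did not pass (0.33 ± 0.12, 0.118). Of 16 further thioredoxin-fold, sulfoxide reductase and sestrin genes, 3 passed (18.8%), all of them higher. They were Sesn2, a stress-induced sestrin (0.83 ± 0.11, 0.011), Txnrd3 (0.71 ± 0.15, 0.0306) and Glrx5, the mitochondrial iron-sulfur glutaredoxin (0.40 ± 0.09, 0.034). Txnip, the inhibitor of thioredoxin, did not pass (-0.11 ± 0.08, 0.395).

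Of the 9 tested NADPH oxidase subunits and other superoxide sources, 3 rose and 1 fell (44.4% passed, against 16.4% of all tested genes). Of the 3, Nos2 read 0 CPM in every heterozygous library and 0.212 and 2.76 CPM in knockout 2 and knockout 3. Nos2 was tested only through its reads in the knockout libraries, so its call carries little weight. It is named outside the rule, after its values were seen, and counts among the 14 higher genes above. Cybb, the catalytic subunit of the phagocyte NADPH oxidase, read 177, 216 and 135 CPM in heterozygous cells against 51.7 and 58.5 CPM in knockout cells. It fell by 1.68 ± 0.21 on the log2 scale (edgeR adjusted p = 0.00977). Its partner in the membrane, Cyba, rose by 0.63 ± 0.12 (0.0218), and the cytosolic subunit Ncf4 by 0.64 ± 0.09 (0.0112), while Rac2 did not pass (0.40 ± 0.12, 0.0757). The subunits that passed did not share a direction. Among 16 genes of selenocysteine insertion and other selenoproteins, 3 passed (18.8%). Selk (0.61 ± 0.12, 0.0237) and Sepn1 (0.49 ± 0.11, 0.0314) rose. Sepp1, the secreted selenium carrier, fell by 0.65 ± 0.13 (0.0253), and Sep15 did not pass (-0.09 ± 0.08, 0.467).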

How the data were processed

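Poly-A RNA of mouse Kupffer cells was amplified by SMART-seq V4, and 10 ng of cDNA entered each library, per the labels. The values deposited by the authors are raw counts per gene in 1 column per library, from HTSeq 0.5.4; the submitters' processing notes name this tool and also DESeq 1.18.0, R 3.1.2 and the mm9 build. No source used here gives the aligner, annotation or strand setting. The gene IDs match a later annotation, so the build used for counting is uncertain, and the column names carry a "3w" that no label explains. Groups were read from sample titles.

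Entries that name no gene made up 47.0% to 48.6% of the heterozygous and 40.0% to 42.8% of the knockout entries and were left out. Reads with several alignments made up 38.3% to 41.0% and 32.3% to 34.1% of aligned entries, so genes with close copies are counted in part. Genes kept by filterByExpr (16436) were fitted with edgeR 4.0.16 in R 4.3.3, with scaling by the trimmed mean of M values. Dispersion was estimated for each gene from all 5 libraries together, with 3 residual degrees of freedom. The common biological coefficient of variation over all genes was 0.339. The threshold was a Benjamini-Hochberg adjusted p of 0.05, with no minimum fold. SE is the log2 fold change over the square root of F. Lengths, GC content and shared 50-base stretches came from GENCODE M21 (99.7% of tested genes matched by ID). The pipeline was tested on simulated counts. Alternatives used DESeq2 1.42.0 and limma 3.58.1.

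All 39 genes are named. Of each pathway list, up to 3 passing genes with the smallest p and the most abundant gene that did not pass are named, and each marker list is given by its sum, with single markers named only among its 2 highest or those at 0; the text says where a gene is named outside this rule. The genes and lists were chosen with earlier results of these data known.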

Additional observations from a re-analysis of the deposited data

How the results depend on the processing

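The 6 genes that passed kept their direction in all 16 alternatives, as did 22 of the 39 genes. With a filter of 1 CPM in 2 samples, Nfe2l2, Gpx3, Txn2, Txnrd2, Prdx2 and Prdx5 passed as well. In that setting 28.6% of all tested genes passed. The number of all genes that passed was 4615 with DESeq2, 1436 with length and GC offsets, 1267 with a minimum absolute log2 fold change of 1, and 335 to 2540 when 1 library was left out. The number among the 39 genes was 13 with DESeq2, 12 with a filter of 1 CPM in 2 samples, 1 with the minimum fold, and 1 to 10 when 1 library was left out (2, 1 and 10 without heterozygous replicates 1, 2 and 3, 4 and 10 without knockout replicates 2 and 3). In the pathway lists it was 10 with length and GC offsets, 6 with the minimum fold and 2 to 25 when 1 library was left out. With the replicate number as a block, 1 gene passed, 0 of the 39 and 0 in the pathway lists (edgeR; 8 and 21 at an unadjusted p under 0.05), on 1 residual degree of freedom. Deviations of same-numbered libraries from their genotype means were almost uncorrelated (-0.0256 and -0.0618). With 2 knockout libraries both values rest on the same knockout difference. They cannot tell whether same-numbered libraries share more than a number. With the hepatocyte markers as covariate 0 genes passed, 0 of the 39 and 0 in the pathway lists (edgeR; 1815, 7 and 10 at an unadjusted p under 0.05), on 2 residual degrees of freedom. Genes not called changed sign as follows. With that covariate the log2 fold change was -0.28 for Keap1, -0.33 for Gpx3, -0.12 for Gpx7, 0.23 for Txn1, -0.21 for Txnrd1, -0.12 for Prdx4, 0.01 for Prdx6, 0.50 for Sod1, 1.25 for Gsta3, 0.43 for Gstz1 and 1.16 for Mgst1. With length and GC offsets it was 0.14 for Gclm, -0.08 for Gpx1, -0.11 for Srxn1, 0.14 for Sod1, 0.10 for Gsta3, -0.08 for Gstt1, 0.07 for Gstz1 and 0.05 for Mgst1. With upper-quartile scaling it was 0.01 for Sod1. With 1 library left out it ran from -0.97 to 0.00 for Gpx8, -0.21 to 0.03 for Txn1, -0.25 to 0.12 for Sod1, -0.07 to 0.68 for Gstm1, -1.03 to 0.06 for Gsta3, -0.50 to 0.62 for Gstt1, -0.25 to 0.08 for Gstz1 and -0.70 to 0.17 for Mgst1. The cause was not tested, except that the block, the covariate and leaving out a library lower the residual degrees of freedom by construction. The covariate also differed between the genotypes, so its fit cannot separate hepatocyte level from genotype.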
